A study of Mus musculus with 62 samples.

Results

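Respiratory complex I, the NADH:ubiquinone oxidoreductase of mitochondria, was followed through its nuclear genes in mouse gastrocnemius muscle during melanoma cachexia. The genes were taken by symbol: every symbol that starts with Nduf, a letter a, b, c, s or v and a number, and Ndufab1. This gave 38 of the 47643 gene symbols in the table. Assembly factors, whose symbols start with Ndufaf, were not among them. Of the 38 genes, 36 encode complex I subunits. Ndufa4 encodes a protein that is now counted among the subunits of complex IV, and Ndufa4l2 encodes its paralogue, so both are described apart from the rest.

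Complex I takes electrons from NADH and passes them through a flavin and a chain of iron-sulfur clusters to ubiquinone, and it couples this transfer to the pumping of protons across the inner mitochondrial membrane. It has the shape of an L, with a matrix arm that binds NADH and ubiquinone and a membrane arm that pumps. The core subunits of the matrix arm are encoded in the nucleus and those of the membrane arm in mitochondrial DNA, while a larger number of nuclear accessory subunits surrounds both. Muscle fibres with many mitochondria depend on the complex for sustained contraction.

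The study measured RNA in 62 libraries of gastrocnemius, a calf muscle of mostly fast fibres, from female mice injected at 2 months of age. In the CAC group the injected melanoma cells were of a kind that brings on cachexia, the wasting of muscle and fat in patients with some cancers. NCAC mice were given melanoma cells without this effect, and Con mice a mock injection. Muscle was taken 2, 4, 6 or 8 weeks later, from 5 mice per group and week and from 7 in CAC at 8 weeks. The sources disagree on strain: the sample labels have C57BL/6J and the series design has NCI Ath/nude. Beyond these strain names no transgene or other allele is named for any group, so the genotype of the mice is not settled. The labels used here do not name the melanoma lines. The labels call the replicates of a group biological replicates, and the p-values below measure the spread between these libraries.

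Each library had an estimated 39.58 to 48.35 M reads on genes, where M is mega, and the median library had 46.22 M. Values are in TPM, the share of a library's transcripts that a gene holds after division by its length. To be tested a gene had to reach 1 TPM in 5 or more libraries, and all 38 genes did so, as did 12364 in all. The lowest value of a complex I subunit in any library stood for an estimated 1520 reads, so counting error was small for these genes. Markers of fast muscle fibres (7 genes) summed to group means of 116100 to 146900 TPM, and those of the labelled tissue were thus abundant, while markers of melanocytes (5 genes) to 0.190 to 0.624 TPM. Since TPM are shares, a change in abundant RNA moves all other values. The RNA of mitochondrial DNA took up 24.2% ± 3.53 of a library in CAC at 8 weeks (SD, n = 7), against 32.2% ± 3.08 in NCAC and 33.5% ± 3.02 in Con (SD, n = 5 each). The median gene of all 12364 was 0.36 higher in CAC than in Con on the log2 scale at 8 weeks. How much of this came with the lower mitochondrial share was not tested. The main counts are therefore also given after median-ratio scaling, called rescaling below, which sets the typical gene to the same level in every library. In bulk muscle, fewer cells of a type and less RNA per cell cannot be told apart.

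Promoter sequences, from 250 bases before to 50 bases after the annotated start, were found in RefSeq (build GRCm38.p6) for 33 of the 38 genes. Of 4 motifs searched on both strands, the motif of YY1, a zinc finger transcription factor, was the most frequent: AAGATGGC, or GCCATCTT on the other strand, lay in the promoters of 7 of the 33 genes (21.2%) and of 3.19% of all 27025 genes with a promoter. These 7 are shown because the motif sits at a like place in each. It starts 22 to 38 bases after the annotated start, always in the listed orientation, and the ATG within it is an annotated start codon of the gene. The capitals mark the motif in 30 bases of the coding strand.
Ndufa3, chr7:3617384-3617413, plus strand: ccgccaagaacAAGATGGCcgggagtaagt
Ndufa9, chr6:126849097-126849126, minus strand: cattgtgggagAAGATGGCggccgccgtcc
Ndufb8, chr19:44555393-44555422, minus strand: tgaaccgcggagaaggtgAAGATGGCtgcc
Ndufc1, chr3:51408915-51408944, minus strand: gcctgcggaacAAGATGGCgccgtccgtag
Ndufs4, chr13:114388045-114388074, minus strand: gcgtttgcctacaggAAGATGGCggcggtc
Ndufs6, chr13:73328433-73328462, minus strand: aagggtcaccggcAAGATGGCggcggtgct
Ndufs7, chr10:80249462-80249491, plus strand: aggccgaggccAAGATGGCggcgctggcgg

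The motif of GABP, an ETS family factor known for driving respiratory genes (CCGGAAG or CTTCCGG), lay in the promoters of 4 of the 33 genes (12.1%) and of 9.93% of all genes. They were Ndufb6, Ndufb7, Ndufs3 and Ndufs8. The motif of NRF1, a regulator of nuclear genes for mitochondria (its palindromic core motif), lay in that of Ndufa11 (3.03%, against 1.07% of all genes). The motif of ERRα, an orphan nuclear receptor (TCAAGGTCA or TGACCTTGA), lay in 0 of 33 and in 0.466% of all genes. None of the 4 motifs contains another, and a match is a description of letters only.

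The 36 subunits differed widely in level in Con muscle. Ndufb9, a membrane arm subunit, was highest at 1392 ± 83.8 TPM (SD, n = 20 libraries over all weeks), and Ndufb2, also of the membrane arm, was lowest at 50.4 ± 5.33 TPM, a ratio of 27.6. Ndufab1, the mitochondrial acyl carrier protein that sits in both arms, was next to lowest at 54.7 ± 5.34 TPM. The ranges of Ndufb2 and Ndufab1 across these libraries overlapped, and their difference within libraries was not tested. Levels of different genes depend on the transcript length used for the division, and Ndufb2 and Ndufab1 have long annotated exon models of 5628 and 6883 bases. Ndufa4 was at 659 ± 40.6 TPM and Ndufa4l2 at 14.7 ± 3.22 TPM. The 38 genes lie on 15 chromosomes, with at most 5 on any 1 of them.

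At 8 weeks most complex I genes were lower in CAC muscle than in Con muscle. Of the 38 genes, 28 fell and 2 rose (limma, Benjamini-Hochberg adjusted p under 0.05 over all 12364 genes), while 8 did not pass the test. Of all genes tested, 5.55% fell and 65.3% rose. The median log2 change was -0.26 for the 38 genes, between the -0.79 of Ndufs1 and the 0.36 of Ndufa7, and it was 0.36 for all genes. After rescaling 37 of the 38 fell and 0 rose, against 21% and 24.9% of all genes, with a median of -0.65. At 8 weeks all 7 CAC libraries lay below all 5 Con libraries for 10 genes and above them for 1, against 1.25% and 25.7% of all genes.

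**Figure D1:**
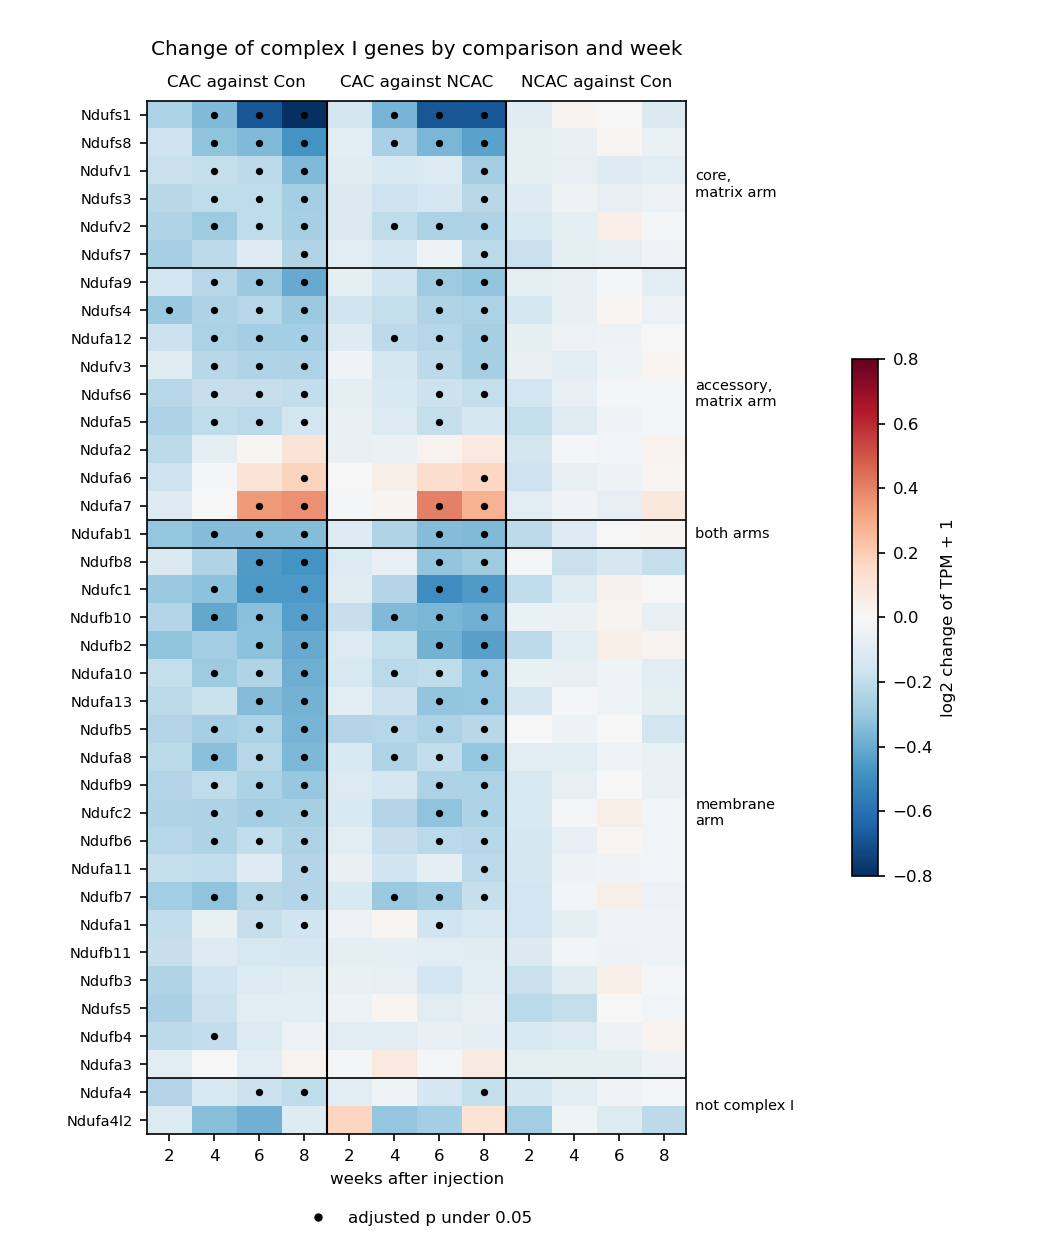
Heat map of the log2 change of TPM + 1 for 37 of the 38 genes (rows, grouped by place in the complex and ordered by the change at 8 weeks) in CAC against Con, CAC against NCAC and NCAC against Con at 2, 4, 6 and 8 weeks (columns), with a dot where the adjusted p was under 0.05. Blue fills most of the CAC columns, the CAC against Con column at 2 weeks included, and dots are frequent from 4 weeks on. Ndufa6 and Ndufa7 are red there at 6 and 8 weeks with TPM as deposited (neither was called higher after rescaling), and the NCAC against Con columns hold no dot.

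Among the core subunits of the matrix arm, 6 fell and 0 rose at 8 weeks, where 5.55% of all genes fell and 65.3% rose. Ndufs1, the largest core subunit, which carries iron-sulfur clusters of the NADH-oxidising module, had the largest change of the 38 genes. It lies on chromosome 1 at 63143596 to 63176833 (GRCm38, minus strand). Its TPM ran from 97.3 to 162 with a median of 120 in the 7 CAC libraries. It was 208, 208, 162, 222 and 215 TPM in NCAC, and 219, 237, 212, 220 and 205 TPM in Con. Every CAC library lay below every Con library, while the highest CAC library just passed the lowest NCAC library. Ndufs1 fell by 0.79 against Con on the log2 scale (SE 0.101, adjusted p = 1.39e-08), and by 0.68 against NCAC (SE 0.101, adjusted p = 2.54e-07).

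Ndufs8, an iron-sulfur subunit of the ubiquinone-reducing module, had 182 to 268 TPM in CAC (median 210), 293, 324, 250, 308 and 288 TPM in NCAC, and 295, 337, 289, 299 and 293 TPM in Con. CAC and Con did not overlap, and CAC overlapped NCAC through 1 low NCAC library. It fell by 0.48 against Con (SE 0.0806, adjusted p = 2.1e-06) and by 0.43 against NCAC (adjusted p = 1.2e-05). Ndufv1, which binds NADH and the flavin, had 247 to 332 TPM in CAC (median 281), 324, 372, 319, 372 and 340 TPM in NCAC, and 366, 393, 360, 364 and 348 TPM in Con. Again every CAC library lay below every Con library. Ndufv1 fell by 0.36 against Con (SE 0.0659, adjusted p = 9.78e-06). Ndufs3, Ndufv2 and Ndufs7 fell by 0.24 to 0.27, with adjusted p of at most 0.00359.

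The 9 accessory subunits of the matrix arm held both genes that rose at 8 weeks, and 6 of the 9 fell. Of all genes 65.3% rose and 5.55% fell. After rescaling 8 of the 9 fell and 0 rose, against 21% and 24.9% of all genes. Ndufa9, a nucleotide-binding subunit beside the ubiquinone site, had 166 to 218 TPM in CAC (median 181), 219, 255, 214, 250 and 236 TPM in NCAC, and 248, 268, 253, 242 and 234 TPM in Con. Its CAC libraries lay below all Con libraries and touched the NCAC range. It fell by 0.41 against Con (SE 0.0629, adjusted p = 5.61e-07). Ndufs4, a subunit needed for a stable NADH module and mutated in Leigh syndrome in humans, had 133 to 171 TPM in CAC (median 153), 184, 200, 159, 193 and 173 TPM in NCAC, and 178, 212, 191, 180 and 176 TPM in Con. It fell by 0.30 against Con (SE 0.066, adjusted p = 0.000118), with no overlap between CAC and Con. Ndufa12, Ndufv3, Ndufs6 and Ndufa5 fell by 0.15 to 0.27.

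Ndufa7, a small accessory subunit of the matrix arm, was the gene with the largest rise. At 8 weeks it had 143 to 178 TPM in CAC (median 167), 119, 133, 164, 137 and 114 TPM in NCAC, and 133, 130, 125, 123 and 114 TPM in Con. Every CAC library lay above every Con library. Ndufa7 rose by 0.36 against Con (SE 0.0795, adjusted p = 9.25e-05), which is the change of the median gene, and by 0.28 against NCAC (adjusted p = 0.00171). Ndufa6, which anchors an acyl carrier protein to the matrix arm, had 653 to 801 TPM in CAC (median 743), 627, 649, 737, 685 and 577 TPM in NCAC, and 619, 705, 629, 655 and 629 TPM in Con. The groups overlapped. Ndufa6 rose by 0.18 against Con (SE 0.0657, adjusted p = 0.0129). Neither rise held after rescaling: Ndufa7 then changed by -0.03 (adjusted p = 0.774) and Ndufa6 fell by 0.21 (adjusted p = 0.0172). Ndufa2, a small accessory subunit of the NADH module, changed by 0.10 (adjusted p = 0.148) as deposited.

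**Figure D2:**
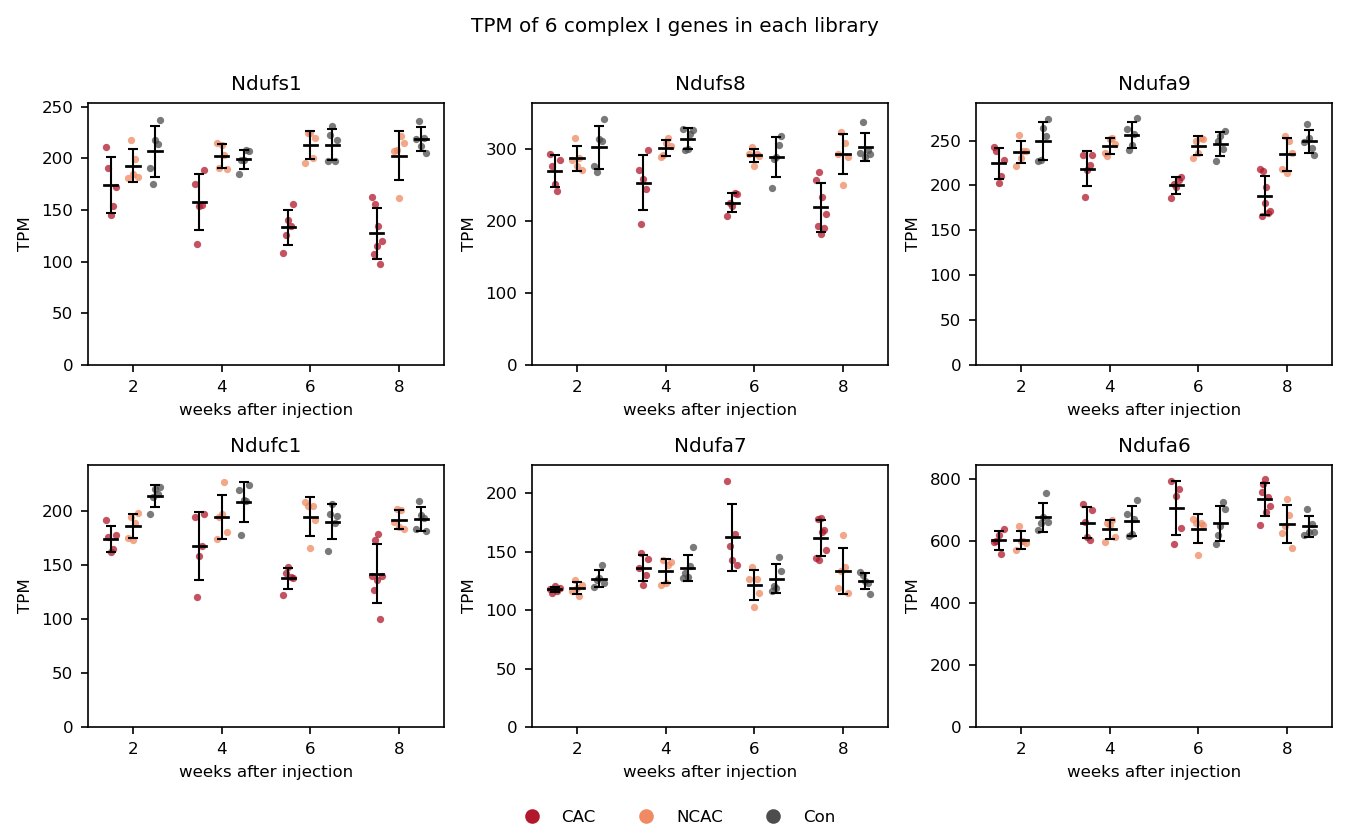
TPM in each library (points) for 6 genes, with the mean (bar) and SD (whiskers) of each group, for CAC, NCAC and Con from left to right at 2, 4, 6 and 8 weeks; each axis starts at 0. The means of Ndufs1, Ndufs8, Ndufa9 and Ndufc1 are lowest in CAC at 6 and 8 weeks, and the mean of Ndufa7 is highest in CAC at those weeks with TPM as deposited, but not after rescaling, when its change against NCAC is below 0 at 6 and 8 weeks.

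Among the 19 genes of the membrane arm, 14 fell and 0 rose at 8 weeks, where 5.55% of all genes fell and 65.3% rose. The 3 of lowest p in this arm were Ndufa10, Ndufc1 and Ndufb5. Ndufa10, a subunit related to nucleoside kinases, had 163 to 211 TPM in CAC (median 173), 216, 239, 199, 233 and 219 TPM in NCAC, and 238, 257, 236, 229 and 214 TPM in Con. Only 1 CAC library reached the NCAC range and none reached Con. It fell by 0.39 against Con (SE 0.0607, adjusted p = 5.5e-07). Ndufc1, a small single-pass membrane subunit, had 99.99 to 179 TPM in CAC (median 140), 190, 202, 185, 201 and 184 TPM in NCAC, and 183, 210, 197, 194 and 181 TPM in Con. All CAC libraries lay below all libraries of both other groups. It was the only one of the 38 genes with all CAC libraries below all NCAC libraries at 8 weeks, where 0.493% of all genes were, and 0 of the 38 had all CAC libraries above, where 24.5% of all genes did. Ndufc1 fell by 0.46 against Con (SE 0.0934, adjusted p = 3.98e-05) and by 0.45 against NCAC (adjusted p = 4.09e-05).

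Ndufb5, a single-pass subunit of the distal membrane arm, had 219 to 287 TPM in CAC (median 252), 315, 333, 248, 298 and 274 TPM in NCAC, and 337, 332, 301, 315 and 333 TPM in Con. CAC lay below Con throughout and overlapped NCAC. It fell by 0.37 against Con (SE 0.0778, adjusted p = 5.46e-05). The membrane arm genes that did not pass the test were Ndufb11, Ndufb3, Ndufs5, Ndufb4 and Ndufa3, whose changes ran from -0.13 to 0.03. Ndufab1 had 31.0 to 49.1 TPM in CAC (median 42.0), 54.4, 54.5, 46.3, 56.8 and 47.3 TPM in NCAC, and 51.3, 58.2, 49.6, 51.0 and 47.7 TPM in Con. Its groups overlapped at their edges, and it fell by 0.34 against Con (SE 0.0934, adjusted p = 0.00115).

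Ndufa4 had 461 to 639 TPM in CAC at 8 weeks (median 574), 638, 662, 683, 667 and 582 TPM in NCAC, and 648, 715, 622, 659 and 613 TPM in Con, with overlap. It fell by 0.20 against Con (SE 0.0626, adjusted p = 0.00402). Ndufa4l2 had 8.71 to 17.9 TPM in CAC (median 12.8), 10.2, 15.3, 8.04, 9.53 and 13.3 TPM in NCAC, and 11.7, 16.4, 12.9, 11.1 and 12.6 TPM in Con. The 3 ranges covered each other, and its change against Con was -0.10 (SE 0.161, adjusted p = 0.581).

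Genes with longer exon models tended to have lower log2 changes at 8 weeks (Spearman rho -0.42 between exon length and log2 change across the 38 genes, which share the libraries and are not independent). Across the same genes rho was 0.23 between the mean level in Con and the change. The 7 genes with the YY1 motif printed above had a median change of -0.30, with 6 falls, and the other 26 genes with a promoter had a median of -0.26, with 20 falls and 2 rises.

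**Figure D3:**
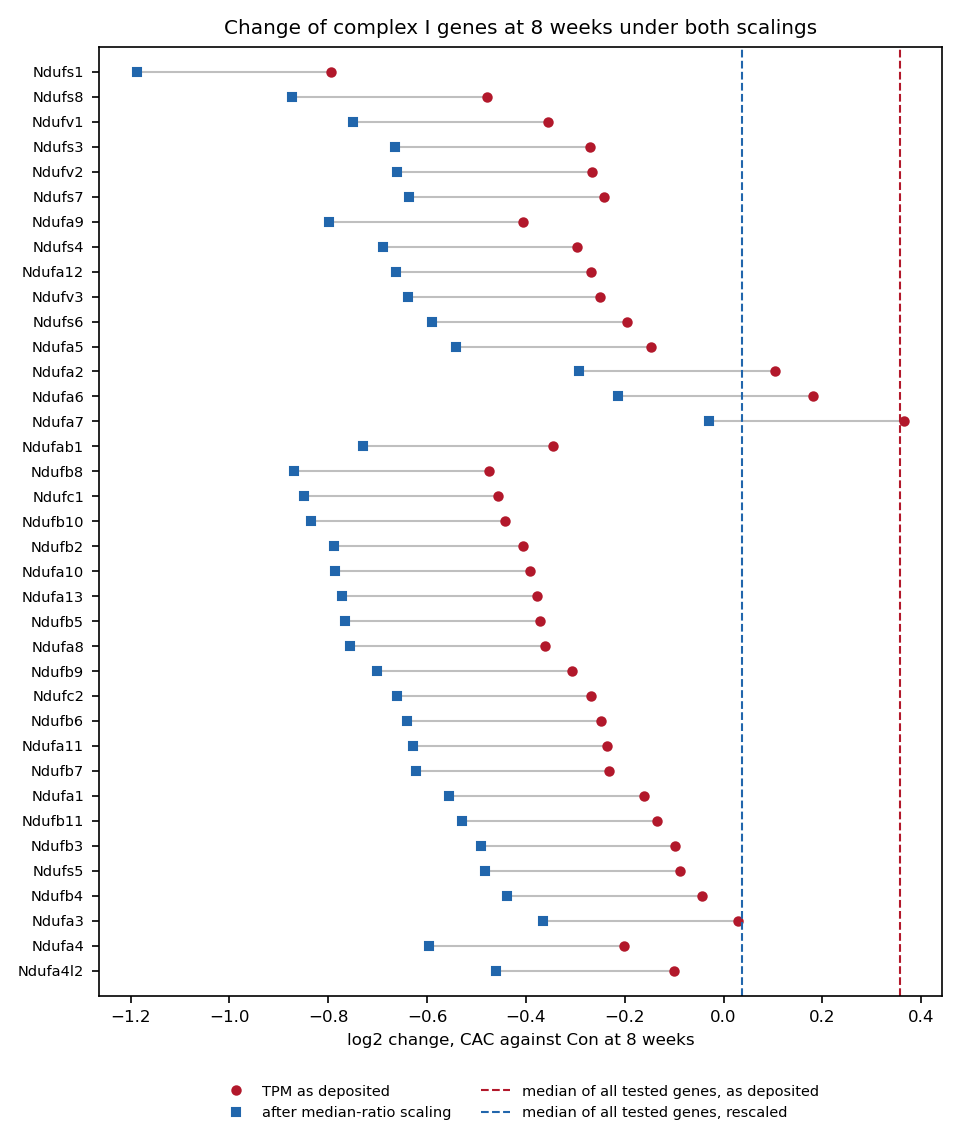
Log2 change of each of 37 of the 38 genes in CAC against Con at 8 weeks, with TPM as deposited (red circles) and after median-ratio scaling (blue squares); dashed lines show the median of all 12364 genes under each scaling, 0.36 and 0.04. Every gene shown shifts to the left on rescaling, and the order of the genes hardly moves, with Ndufs1 lowest and Ndufa7 highest under both.

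Falls were called in numbers from 4 weeks on, while the median change with TPM as deposited lay between -0.21 and -0.26 at every week. After rescaling the median over the 38 genes was -0.31, -0.41, -0.53 and -0.65 at 2, 4, 6 and 8 weeks, lower at each later week. At 2 weeks all 38 changes in CAC against Con were below 0, with a median of -0.22, while the median of all genes was 0.09. Only Ndufs4 passed the test, where 0.0162% of all genes fell and 0.267% rose, and 31 of the 38, all of them lower, had an unadjusted p under 0.05, as did 1647 of all 12364 genes, 276 of them lower. After rescaling these counts were 34 and 1659. Ndufs4 had 169, 159, 147, 148 and 153 TPM in CAC, 163, 198, 167, 164 and 175 TPM in NCAC, and 177, 178, 194, 199 and 208 TPM in Con. No CAC library reached the Con range, and Ndufs4 fell by 0.30 (SE 0.0713, adjusted p = 0.0485). Ndufs4 kept its call without the first CAC or the second Con library, and lost it without any 1 of the other 8. After rescaling it was again the only gene called, where 0.0809% of all genes fell and 0.275% rose. At 2 weeks 11 of the 38 genes had every CAC library below every Con library, against 0.542% of all genes.

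At 4 weeks 22 of the 38 genes fell in CAC against Con and 0 rose, where 2.38% of all genes fell and 23% rose. The median change was -0.21. After rescaling 31 fell and 0 rose, against 7.68% and 7.76% of all genes. The 3 of lowest p were Ndufa10 (fell by 0.28, adjusted p = 0.00196), Ndufb10, a disulfide-bonded subunit of the membrane arm (fell by 0.41, adjusted p = 0.00345), and Ndufv2, an iron-sulfur subunit of the NADH module (fell by 0.28, adjusted p = 0.0043). Ndufb10 had 308, 232, 316, 278 and 355 TPM in CAC, 369, 376, 368, 398 and 378 TPM in NCAC, and 414, 368, 376, 397 and 410 TPM in Con. The second CAC library was lowest, and none reached the range of the other groups. This count of 22 rests partly on that library, which also had the lowest share of mitochondrial RNA (24.5%) of its group. Without it 4 genes fell, where 0.412% of all genes did. Without the fifth Con library 13 fell, where 1.53% of all genes did. The count also rests on the other groups in the fit: with only the groups compared, 3 genes fell.

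At 6 weeks 26 of the 38 genes fell and 2 rose, where 5.41% of all genes fell and 51.8% rose, and the median change was -0.22. After rescaling 36 fell and 0 rose, against 16.6% and 15.7% of all genes. Ndufs1 had 109, 126, 140, 135 and 156 TPM in CAC, 195, 225, 224, 200 and 220 TPM in NCAC, and 197, 222, 231, 198 and 218 TPM in Con. All CAC libraries lay far below both other groups, and Ndufs1 fell by 0.68 against Con (SE 0.109, adjusted p = 4.51e-06) and by 0.68 against NCAC (adjusted p = 1.24e-06). Ndufa7 was among the rises, and it had 210, 154, 143, 165 and 138 TPM in CAC, 127, 137, 103, 126 and 115 TPM in NCAC, and 117, 120, 119, 146 and 133 TPM in Con. It rose by 0.34 against Con (SE 0.0858, adjusted p = 0.00105), with 2 CAC libraries within the Con range. Against NCAC it rose by 0.40 (adjusted p = 7.26e-05) with no overlap. All CAC libraries lay above all NCAC libraries for 39.8% of all genes at 6 weeks. After rescaling the changes of Ndufa7 against Con and NCAC were 0.03 and -0.02, and neither passed the test.

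Whether the difference between CAC and Con changed over the 4 weeks was tested directly. By the F test of limma 3 of the 38 genes changed, against 12.1% of all genes: Ndufa7 (adjusted p = 0.00951), Ndufs1 (adjusted p = 0.0241) and Ndufa6 (adjusted p = 0.0447). Ndufa2 did not pass (adjusted p = 0.0823). After rescaling only Ndufs1 passed (adjusted p = 0.0202), where 3.97% of all genes did. The count of 3 became 1 without the first CAC library at 2 weeks and 5 without the first CAC library at 8 weeks.

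Ndufs1 fell further below Con at the later weeks. Its mean was 174 ± 26.8, 158 ± 27.3, 133 ± 17.4 and 127 ± 24.5 TPM in CAC at 2, 4, 6 and 8 weeks (SD, n = 5, 5, 5 and 7). In Con the means at the same weeks were 207 ± 24.3, 199 ± 9.16, 213 ± 15.1 and 219 ± 11.7 TPM (n = 5 each). The difference from Con was -0.25, -0.35, -0.68 and -0.79 on the log2 scale, and the difference at 8 weeks was 0.54 below that at 2 weeks (log2 -0.54, SE 0.149, adjusted p = 0.00968). Between these weeks 2 other genes moved down, Ndufs8 (-0.32, adjusted p = 0.0402) and Ndufa9 (-0.25, adjusted p = 0.0352). Another 3 moved up, Ndufa7 (0.47, adjusted p = 0.00604), Ndufa6 (0.35, adjusted p = 0.0104) and Ndufa2 (0.31, adjusted p = 0.0164). Among all genes 1.27% moved down and 27.2% up. After rescaling 7 of the 38 genes moved down and 0 up, against 4.22% and 3.93% of all genes. Between 6 and 4 weeks and between 8 and 6 weeks 0 of the 38 genes and 0 of all 12364 passed in limma. At an unadjusted p under 0.05 there were 2 and 0 of the 38, beside 1263 and 385 of all genes.

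CAC was also set against NCAC, mice that carry melanoma cells without cachexia. At 2 weeks 0 of the 38 genes passed in limma, where 0.0162% of all genes fell and 1.16% rose. At an unadjusted p under 0.05 there were 2 of the 38 and 2383 of all 12364 genes, and after rescaling 20 of the 38 and 1613 of all genes. At 4 weeks 9 fell and 0 rose, where 1.59% of all genes fell and 18.1% rose. The lowest p were those of Ndufb10 (fell by 0.36, adjusted p = 0.0172), Ndufs1 (fell by 0.37, adjusted p = 0.0195) and Ndufa10 (fell by 0.22, adjusted p = 0.022). This count was 0 with only the groups compared in the fit. It was also 0 without the second CAC library, where 0.113% of all genes fell. It was 15 without CAC replicate 1 or 5, where 2.02% and 2.39% of all genes fell, and 5 without CAC replicate 4 or NCAC replicate 2, where 0.817% and 1% did. It was 2, 3 and 4 without NCAC replicates 3, 4 and 5, where 0.679%, 0.768% and 0.93% of all genes fell. At 6 weeks 23 fell and 2 rose, where 4.64% of all genes fell and 64.1% rose, and at 8 weeks 26 fell and 2 rose, where 4.8% fell and 67.5% rose. The medians over the 38 genes at 2, 4, 6 and 8 weeks were -0.09, -0.16, -0.20 and -0.23. After rescaling 0, 24, 36 and 36 of the 38 genes fell at these weeks, against 0.0809%, 5.01%, 20.2% and 20.6% of all genes. None rose at any week after rescaling, where 0.364%, 3.22%, 21.6% and 25.1% of all genes did.

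The rises against NCAC at 8 weeks were those of Ndufa7, given above, and Ndufa6 (0.17, adjusted p = 0.0208), which also rose against Con. These comparisons share the CAC libraries. Every CAC library lay below every NCAC library for 0, 6, 11 and 1 of the 38 genes at 2, 4, 6 and 8 weeks, where 0.315%, 0.946%, 2.01% and 0.493% of all genes did. Every CAC library lay above for 0, 0, 1 and 0 of the 38, where 9.27%, 13.4%, 39.8% and 24.5% of all genes did.

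No gene passed the test between NCAC and Con. At 2, 4, 6 and 8 weeks 0 of the 38 genes and 0 of all 12364 (0%) passed in limma, and those of the 38 with an unadjusted p under 0.05 were 10, 1, 0 and 0, beside 471, 224, 909 and 139 of all genes. After rescaling 0 of the 38 had an unadjusted p under 0.05 at any week, beside 477, 382, 513 and 179 of all genes. At 2 weeks all 38 changes were below 0 in NCAC against Con, as they were in CAC against Con. The median was -0.12 for the 38 genes, or -0.08 after rescaling, and -0.04 for all genes, and the comparisons share the Con libraries. Over the weeks in Con, 0 of the 38 genes changed by the F test of limma, and 0 had an unadjusted p under 0.05, where 0.59% of all genes changed.

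The summed TPM of the 38 genes followed the single genes. In CAC it was 11510 ± 590 at 2 weeks, 11950 ± 1126 at 4, 11660 ± 553 at 6 and 11570 ± 956 at 8 weeks (SD, n = 5, 5, 5 and 7). In NCAC it was 12220 ± 548, 12880 ± 470, 12860 ± 709 and 12910 ± 627, and in Con 13310 ± 945, 13460 ± 719, 13060 ± 957 and 13220 ± 657 (n = 5 each). The CAC sum was below the Con sum at every week, by more than 1 SD of either group. After rescaling the 8-week sums were 9391 ± 1718 in CAC, 13800 ± 968 in NCAC and 13950 ± 573 in Con.

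The 7 subunits encoded in mitochondrial DNA make up the core of the membrane arm. In CAC they summed to 89970 ± 6426, 73190 ± 8690, 64150 ± 11240 and 63390 ± 9029 TPM at 2, 4, 6 and 8 weeks. In NCAC the sums were 100400 ± 4432, 86310 ± 8050, 98450 ± 13080 and 84940 ± 8925, and in Con 90930 ± 3758, 85620 ± 8840, 86820 ± 6747 and 87010 ± 10580. The 2-week CAC mean was close to that of Con, unlike the nuclear sum. Against Con, 0, 1, 7 and 7 of these 7 genes fell at 2, 4, 6 and 8 weeks, and against NCAC 0, 0, 7 and 6. Of all genes 0.0162%, 2.38%, 5.41% and 5.55% fell against Con at these weeks, and 0.0162%, 1.59%, 4.64% and 4.8% against NCAC. After rescaling 0, 3, 7 and 7 of the 7 genes fell against Con and 0, 3, 7 and 7 against NCAC. The rescaled shares of all genes were 0.0809%, 7.68%, 16.6% and 21% against Con, and 0.0809%, 5.01%, 20.2% and 20.6% against NCAC. At 8 weeks mt-Nd1 fell by 0.55 (adjusted p = 4.72e-06), mt-Nd4l by 0.40 (adjusted p = 0.000177) and mt-Nd5 by 0.50 (adjusted p = 0.00012) against Con.

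**Figure D4:**
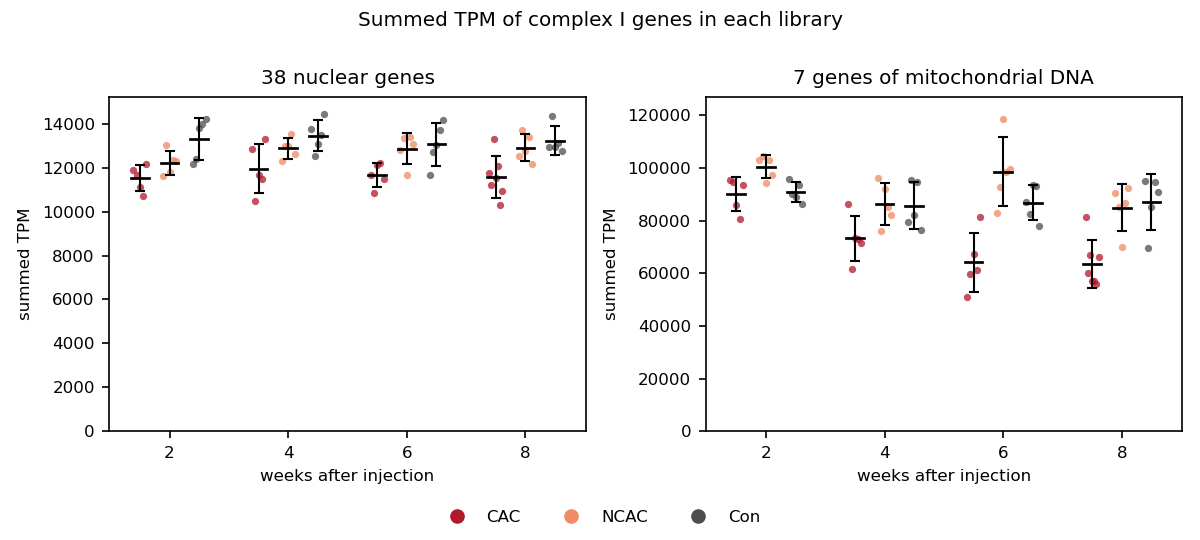
Summed TPM in each library (points) with the mean (bar) and SD (whiskers) of each group, for the 38 nuclear genes (left) and the 7 genes of mitochondrial DNA (right), with CAC, NCAC and Con from left to right at each week; axes start at 0. The nuclear sum is lower in CAC than in Con from 2 weeks on, and the mitochondrial sum is close to Con at 2 weeks and lower at 6 and 8 weeks.

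Genes that work with complex I were counted in the same way. Of 17 assembly factors, which build the complex and are not part of it, 4 fell and 3 rose in CAC against Con at 8 weeks. Of all genes 5.55% fell and 65.3% rose, and the 3 rises were smaller than the 0.36 of the median gene. After rescaling 14 factors fell and 0 rose, against 21% and 24.9% of all genes. Ndufaf6 fell by 0.44 (adjusted p = 4.85e-06), Ndufaf5, whose human form modifies NDUFS7, fell by 0.40 (adjusted p = 0.000209) and Ndufaf1 fell by 0.28 (adjusted p = 0.0359). Nubpl, which delivers iron-sulfur clusters to the complex, rose by 0.18 (adjusted p = 0.0141), Tmem261 rose by 0.18 (adjusted p = 0.0222) and Tmem186 by 0.16 (adjusted p = 0.0457). After rescaling Nubpl changed by -0.13 (adjusted p = 0.0532), and Tmem261 and Tmem186 fell. The factors summed to 446 ± 22.9 TPM in CAC, 449 ± 17.1 in NCAC and 457 ± 20.9 in Con at 8 weeks.

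The 40 nuclear subunits of complexes II to V gave counts like those of complex I. At 2, 4, 6 and 8 weeks 1, 24, 30 and 33 of them fell in CAC against Con, and 0, 0, 2 and 2 rose. Of all genes 0.0162%, 2.38%, 5.41% and 5.55% fell at these weeks, and 0.267%, 23%, 51.8% and 65.3% rose. After rescaling 2, 34, 37 and 37 of the 40 fell, and 1 rose at 8 weeks. The rescaled shares of all genes that fell were 0.0809%, 7.68%, 16.6% and 21%, and 24.9% rose at 8 weeks. Their median change at 8 weeks was -0.28, beside -0.26 for the 38 complex I genes. Cox7a1, the heart and muscle form of a complex IV subunit, fell by 0.95 (adjusted p = 4.96e-07), more than Ndufs1, and Uqcrc1 and Uqcrc2 of complex III fell by 0.64 (adjusted p = 8.48e-08) and 0.50 (adjusted p = 8.11e-08). Cox8a, the widely expressed form of another complex IV subunit, rose by 0.70 (adjusted p = 2.95e-07) and by 0.31 after rescaling (adjusted p = 0.000689). Among 6 regulators of mitochondrial genes, Nrf1 rose by 0.61 (adjusted p = 1.03e-06) and Gabpa, which encodes the DNA-binding subunit of GABP, by 0.41 (adjusted p = 0.00146). Esrra, which encodes ERRα, fell by 0.34 (adjusted p = 0.0034). Nrf1 kept its rise after rescaling (0.30, adjusted p = 0.000377), and Gabpa did not (0.05, adjusted p = 0.683). Ppargc1a, the coactivator that drives mitochondrial biogenesis, changed by 0.29 (SE 0.273, adjusted p = 0.333).

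Markers of cell types were counted in CAC against Con at 8 weeks, where 5.55% of all genes fell and 65.3% rose. After rescaling these shares were 21% and 24.9%. The 13 macrophage markers all rose in CAC against Con at 8 weeks, 10 of them after rescaling. Their sum was 508 ± 234 TPM in CAC, from 285 to 889, 132 ± 50.9 TPM in NCAC and 171 ± 92.3 TPM in Con, from 89.9 to 325. Cd163, a scavenger receptor of macrophages, rose by 2.34 (adjusted p = 7.58e-08). Of 7 fast fibre markers 3 fell and 1 rose: Pvalb, the calcium buffer of fast fibres, fell by 1.07 (adjusted p = 6.73e-05), Mylpf by 0.61 (adjusted p = 0.000321) and Acta1 by 0.29 (adjusted p = 0.022), and Myh1, the myosin of fast IIx fibres, rose by 0.74 (adjusted p = 0.000331). Of 8 slow fibre markers 0 fell and 3 rose, among them Myh7, the slow myosin, by 0.59 (adjusted p = 0.0404). Of 5 fibroblast markers 2 rose, of 4 endothelial markers 3 rose and 1 fell, and of 4 adipocyte markers 1 rose. After rescaling 5 fast fibre markers fell and 0 rose, 1 slow fibre marker fell and 0 rose, 2 fibroblast markers rose, 2 endothelial markers rose and 1 fell, and 1 adipocyte marker rose and 1 fell. The part of these cells in the complex I values was not tested.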

How the data were processed

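The authors deposited 1 table of TPM values with a column for each of the 62 libraries, and its values sum to the same total in each. Per the labels' protocols, RNA was prepared with a stranded poly(A) kit and sequenced on an Illumina NovaSeq. Per the submitters' processing notes the genome build was mm10. What aligned and counted the reads, and with which annotation, is not given in the sources used here. Groups were taken from the sample descriptions, which match the titles. The treatment tag names cachectic melanoma cells in all libraries, those of NCAC and Con included. It conflicts with the descriptions and titles and was ignored.

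TPM has no depth of its own. Depth was estimated from TPM, exon lengths of the GENCODE vM21 annotation (45090 symbols, at least 96.98% of TPM) and the smallest steps of each library. Of values of 1 to 20 reads, 78% to 79.7% per library came within 0.02 of a whole number, too few to recover counts, so no count test was run.

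The tests used limma 3.58.1 (R 4.3.3) on log2(TPM + 1), with 12 group means in 1 fit and a variance trend. The 12364 genes that reached 1 TPM in 5 or more libraries entered. A log2 change on this scale understates the change of low genes. Tests were two-sided, with Benjamini-Hochberg adjustment over all genes of a comparison and a threshold of 0.05. The code was tested on simulated data. The members, their roles, the other lists and the tests were chosen with earlier results of these data known. Genes named with values are the 3 of lowest p in each part of the complex at 8 weeks, Ndufab1, Ndufa4 and Ndufa4l2, members called against the majority, the 3 of lowest p of other comparisons, and the 5 of lowest p in the F test. From other lists up to 3 genes of lowest p in each direction were taken at 8 weeks, and Ppargc1a was chosen after its values were seen. Of the 38 members, 1 is counted in all totals but not reported here by itself. Reads from overlapping genes on the 2 strands cannot be told apart, since use of strand in counting is not stated. Such overlaps touch 15 of the 38 genes, and 3 overlap a gene on the same strand. Alternatives were a pseudocount of 0.1, no filter, median-ratio scaling, a block for the replicate number, a fit of only the groups compared, and each library left out.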

Additional observations from a re-analysis of the deposited data

Results flagged for a closer look

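In 3 genes the difference between CAC and Con changed over the weeks by the F test of limma: Ndufa6 (adjusted p = 0.0447), Ndufa7 (adjusted p = 0.00951) and Ndufs1 (adjusted p = 0.0241). Of all genes 12.1% changed by this test. After rescaling only Ndufs1 of these 3 passed it, with adjusted p of 0.99, 0.349 and 0.0202 in the same order. Between 8 and 2 weeks the log2 difference moved by 0.31 for Ndufa2, 0.35 for Ndufa6, 0.47 for Ndufa7, -0.25 for Ndufa9, -0.54 for Ndufs1 and -0.32 for Ndufs8, each past the threshold. Of all genes 27.2% moved up and 1.27% down. After rescaling none of these genes was called as moving up.

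Of 180 groups of values examined, 6 held a library that stood far from the others of its group by Dixon's criterion, and chance gives about 1 in 20 groups. Ndufs1 was lowest in 1 NCAC library at 8 weeks, at 161.6 TPM. Ndufs8 was highest in 1 Con library at 8 weeks, at 337.2 TPM, and the sum of the 38 genes was highest there too, at 14370 TPM. Ndufa10 was lowest in 1 CAC library at 6 weeks, at 173.5 TPM. Ndufab1 was lowest in 1 Con library at 6 weeks, at 45.09 TPM, and Ndufa6 in 1 NCAC library at 6 weeks, at 556.5 TPM.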

How the results depend on the processing

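Counts are of the 38 genes. Except for rescaling and libraries left out, no shares of all genes are given, so those counts cannot be set against other genes. A pseudocount of 0.1 moved no count by over 1.5 times. Without a filter, 0 genes fell in CAC against Con at 2 weeks and 5 in CAC against NCAC at 4 weeks. With only the groups compared in the fit, 0, 3 and 15 fell against Con at 2, 4 and 6 weeks, 1 rose at 6 and 1 at 8 weeks; against NCAC 0 fell at 4 weeks and 17 at 8 weeks, and 1 rose at 6 and 1 at 8 weeks. The F test then called 1 gene. After rescaling 0 rose at 6 and 8 weeks against Con or NCAC, 24 and 36 fell against NCAC at 4 and 6 weeks, and the F test called 1. Rescaling turned the sign of Ndufa7 (-0.0286 against Con at 8 weeks, -0.02 and -0.129 against NCAC at 6 and 8 weeks) and of Ndufa6 at 8 weeks (-0.214 against Con and -0.244 against NCAC), as the median of all genes moved to near 0. Rescaled sums were 13630 TPM in NCAC and 14360 in Con at 2 weeks, 13910 in NCAC and 14460 in Con at 4, 9536 in CAC and 14180 in NCAC at 6, and 9391 in CAC, 13800 in NCAC and 13950 in Con at 8 weeks. With each library left out in turn, 0 to 1, 4 to 27, 19 to 27 and 25 to 29 genes fell against Con at 2, 4, 6 and 8 weeks, and 2 to 3 rose at 6 weeks. Of all genes 0% to 0.089%, 0.412% to 3.04%, 3.88% to 5.8% and 4.67% to 6.45% fell at these weeks. Against NCAC 0 to 15, 19 to 26 and 23 to 28 of the 38 genes fell at 4, 6 and 8 weeks. Of all genes 0.113% to 2.39%, 3.51% to 4.95% and 3.83% to 5.59% fell. Of the 38 genes 2 to 3 rose against NCAC at 6 weeks and 1 to 2 at 8 weeks, and the F test called 1 to 5. With the replicate number as a block, 0 genes fell against Con at 2 weeks and the F test called 1. On average the numbers showed no pairing of mice: deviations of same-numbered libraries correlated by 0.00487 over 60 pairs, from -0.299 to 0.295. Those of different numbers correlated by -0.000654 over 260 pairs, from -0.34 to 0.49. An average cannot exclude pairing in some of the weeks. The cause of the moves in the counts was not tested. Values of named genes kept direction and call in 608 cases and lost the call in 50 with a library left out. These numbers were 57 and 4 with the block, and 36 and 25 with only the groups compared. That last fit takes the spread from fewer libraries and from those groups alone. The part of either in the lost calls was not tested.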
